A study of Arabidopsis thaliana with 6 samples.

Results

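The Calvin cycle and photorespiration genes described here are 39 Arabidopsis thaliana loci chosen by function, 23 for the Calvin cycle and 16 for photorespiration. The choice was made with earlier results of these data known. The Calvin cycle loci run from the small subunits of Rubisco to the CP12 regulators, and the photorespiration loci from phosphoglycolate phosphatase to catalase. Of the 39 loci, 34 had a row among the 21693 genes of the deposited count table, 20 in the Calvin cycle and 14 in photorespiration. RBCS3B, PGK2, GAPA-1, GOX2 and GLDT had no row and were not analysed here. A filter on low counts left 33 of them, 19 and 14, among 10803 genes tested, and removed RBCS1A.

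The study sequenced RNA of shoots of 8-day-old seedlings, 3 samples of wild-type plants (WT) and 3 of the mutant phod1. All seedlings grew at 23 °C in days of 16 h light and nights of 8 h, on agar medium of 1/2 Murashige and Skoog strength with 1.0% sucrose and 1.1% agar. The gene altered in phod1 is not named in the labels, and the mutation could therefore not be checked in the libraries. Nor is it said whether replicates are separate cultures, so that the spread behind each p-value may be technical.

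The libraries held 33183463 to 54720319 units of estimated count, of which about 4 stand for 1 fragment by the spacing of the low values. Levels are given as CPM, a gene's counts relative to a library size scaled by the trimmed mean of M-values (TMM), with factors of 0.857 to 0.907 in WT and 1.10 to 1.17 in phod1. A floor of 3 fragments (12 units) stood at 0.256 to 0.404 CPM, and covers counting error only. Libraries of one genotype correlated at 0.945 to 0.951 in log2 CPM, and libraries of different genotypes at 0.885 to 0.893. All 5 shoot markers were detected, with a summed level between 283 and 313 CPM in WT and between 243 and 289 CPM in phod1. Of these, the meristem gene STM was higher in phod1 (log2 fold change 1.52, SE 0.181, adjusted p = 0.00290) and the epidermal gene ATML1 lower (-0.59, SE 0.162, adjusted p = 0.0424), and their part in the results below was not tested. The 8 root markers together lay between 0.168 and 0.982 CPM in WT and between 0.731 and 0.989 CPM in phod1, with the root hair gene EXPA7 at 0 in every library.

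In the Calvin cycle, Rubisco joins CO2 to ribulose 1,5-bisphosphate, the product is reduced to triose phosphate with ATP and NADPH from the light reactions, and most of the triose phosphate is turned back into the acceptor. Rubisco also accepts O2, and the 2-phosphoglycolate so formed is an inhibitor that photorespiration recycles through chloroplast, peroxisome and mitochondrion, with release of CO2 and ammonium. The enzymes of both pathways are abundant in green shoots, and many of their nuclear genes are known to respond to light and sugars.

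Of the 18 genes of both pathways that passed the test, 17 were lower in phod1. In the quasi-likelihood test of edgeR, with p-values adjusted by Benjamini-Hochberg over all genes tested, these were 17 of 33 genes tested, at the threshold of 0.05, against a background of 13.0% of all genes tested. Only TKL2, a second plastid transketolase, was higher, against a background of 14.6%, and 15 were not called. The fold change was negative in 31 of 33, with a median log2 fold change of -0.73, beside 0.01 over all genes tested. In 26 of 33 genes every phod1 library lay below every WT library, as was the case in 22.9% of all genes tested. With plain library sizes in place of TMM, which moves the median over all genes to 0.39, 11 of the 33 were called lower, against a background of 5.72% (618 of the 4162 genes then called were lower, compared with 1407 of 2988 under TMM). In bulk shoots, fewer photosynthetic cells and less RNA of these genes per cell cannot be told apart.

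**Figure D1:**
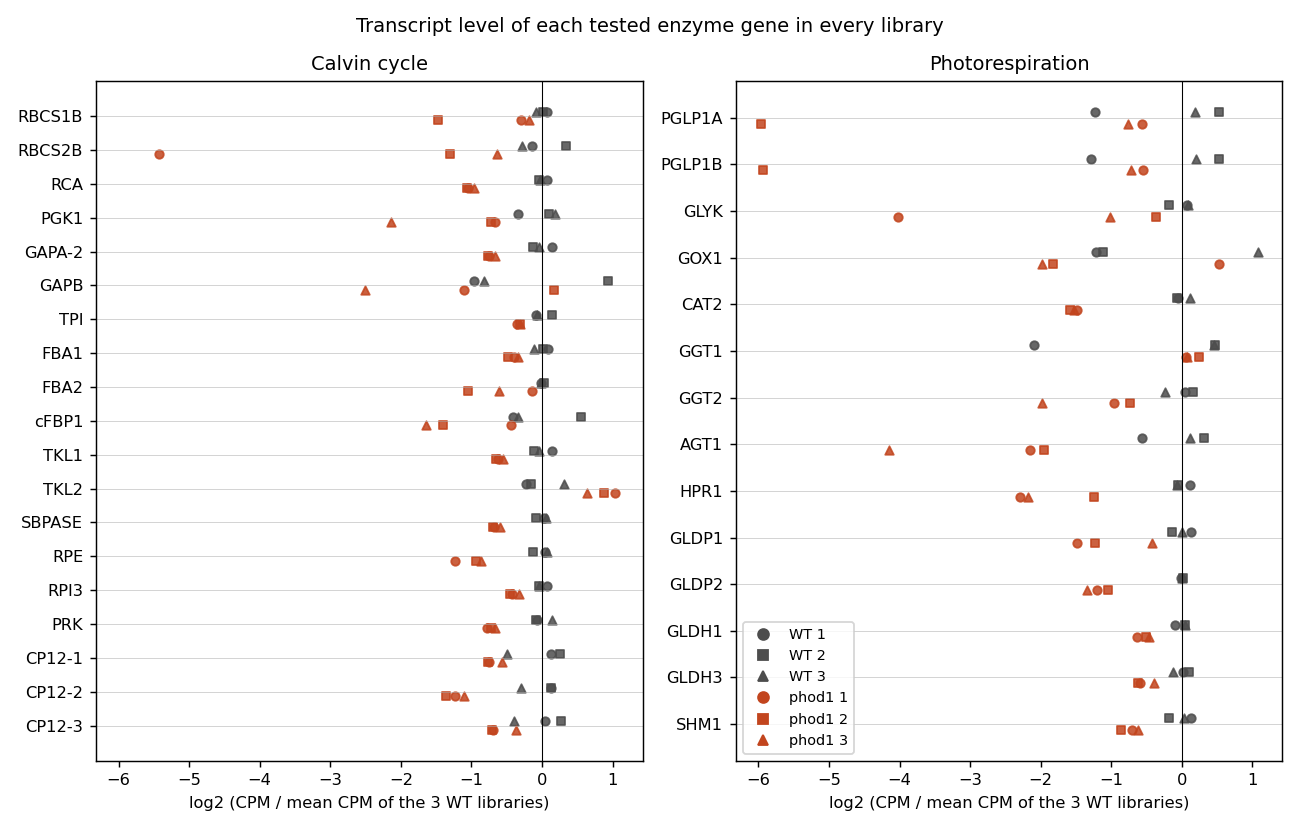
Level of each of the 33 tested genes in each of the 6 libraries, as log2 of its CPM over the mean of the 3 WT libraries (x axis), with WT in grey and phod1 in red and the replicate given by the symbol. The phod1 libraries lie left of the WT libraries in 26 genes, and single libraries stand far from their sisters in RBCS2B, PGLP1A and PGLP1B.

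Counted by pathway, 10 of 19 Calvin cycle genes were lower, 1 was higher and 8 were not called, with a median log2 fold change of -0.69. For photorespiration 7 of 14 were lower, none was higher and 7 were not called, with a median of -1.15. The photorespiration median was -0.76 without phod1 2. Over the genes whose replicates of each genotype lay within 2-fold, described below, the medians were -0.63 in the Calvin cycle (14 genes) and -0.73 in photorespiration (5 genes), and a difference between the pathways was not tested. The authors' deposited table of genes under an adjusted p of 0.05 holds 23 of the 39 loci, 22 lower and 1 higher. It lists 3902 genes in all, 1912 of them lower. Only genes under that threshold are in it, so a share of all genes tested cannot be taken from it. It includes all 18 genes called here and, in addition, PGK1, cFBP1, CP12-1, GGT2 and GLDP1. For RCA it gives a log2 fold change of -1.034 (SE 0.0731), the same as the DESeq2 fit made here. That table and the DESeq2 calls below are therefore not separate support. DESeq2 called 15.8% of all genes it gave an adjusted p lower.

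**Figure D2:**
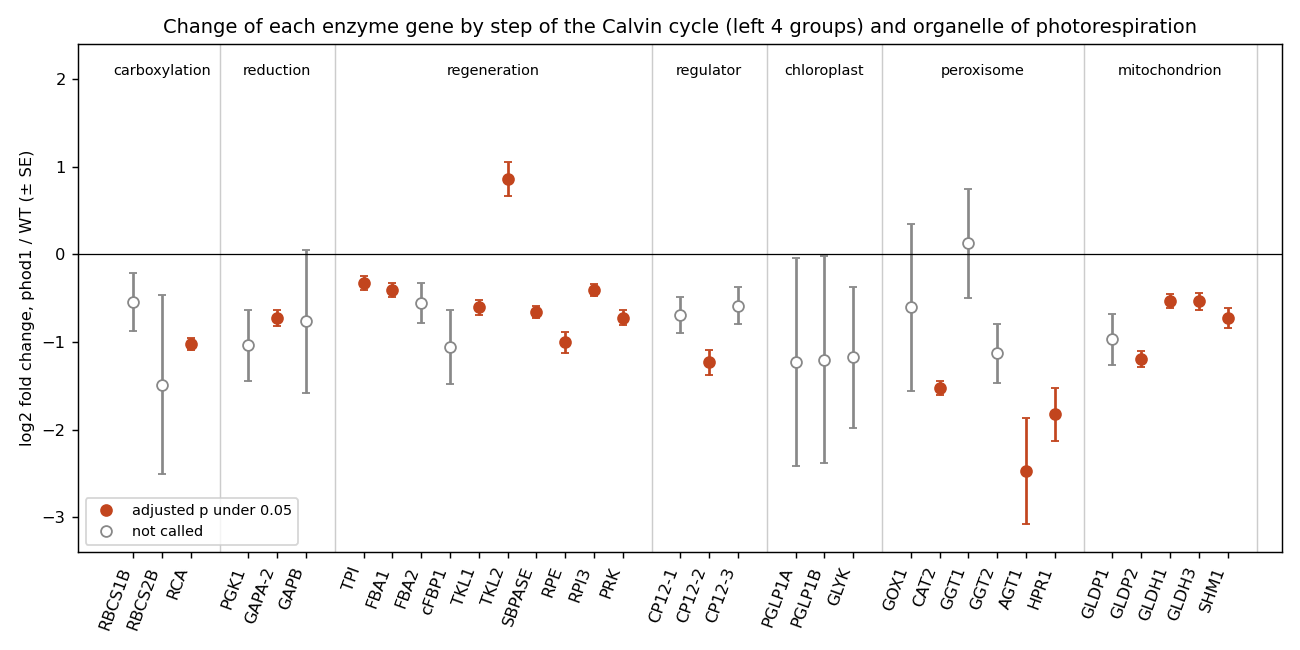
Log2 fold change of phod1 over WT with its SE (y axis) for each tested gene, grouped by step of the Calvin cycle and by organelle of photorespiration; filled red points have an adjusted p under 0.05. TKL2 at 0.86 and GGT1 at 0.13 are the points above 0, and AGT1 at -2.47 is the lowest.

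How far these values can be read depends on how alike the replicates were. In 14 of the 33 genes (42.4%) the highest library of a genotype was over 2-fold the lowest, compared with 31.3% of all genes tested and 21.3% of those with a mean of 10 CPM or more. The share was 26.3% in the Calvin cycle (5 of 19) and 64.3% in photorespiration (9 of 14). Among the 19 genes with a smaller spread, called steady here and chosen after their values were seen, 15 were lower, 1 was higher and 3 were not called. Among the 14 others, the 2 called were AGT1 and HPR1. A small spread itself makes a call more likely, and the share called among all genes of like spread was not taken. A single library lay at least 8-fold from both of its sisters in RBCS1A (WT 1), RBCS2B (phod1 1), PGLP1A and PGLP1B (phod1 2), and the assignment of reads to these genes is uncertain.

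At some loci a neighbouring gene's row bears on the values. RBCS1A and GAPA-1 are described here, and SHM1 and the CP12 genes below. RBCS1A (AT1G67090, chr1:25048158-25049667, minus strand, TAIR10.1), which encodes a Rubisco small subunit, held 18141 CPM in WT 1 and at most 1 unit in every other library. The row of the next gene, ABA4 (AT1G67080), which lies 1055 bases away and is known for a step in abscisic acid synthesis, held 28.6 CPM in WT 1. In WT 2 and WT 3 it held 21697 and 20551 CPM, and in phod1 17459, 16686 and 18884 CPM. The rows are thus each high where the other is low. Their sum was 20139 ± 1799 CPM (SD, n = 3) in WT and 17676 ± 1115 CPM (SD, n = 3) in phod1. The sum did not pass the test (log2 fold change -0.19, SE 0.0938, adjusted p = 0.200).

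GAPA-1 (AT3G26650, chr3:9794862-9797045, plus strand), a subunit of the plastid glyceraldehyde 3-phosphate dehydrogenase, had no row. The row of LWD2 (AT3G26640), a clock gene whose annotation overlaps GAPA-1 by 13 bases, held 3230.5, 3131 and 3499 CPM in WT and 1968, 1876 and 2007 CPM in phod1. The groups did not overlap, and that row was lower in phod1 (log2 fold change -0.75, SE 0.0716, adjusted p = 0.00132). Which of the genes those reads came from cannot be told apart in the table.

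**Figure D3:**
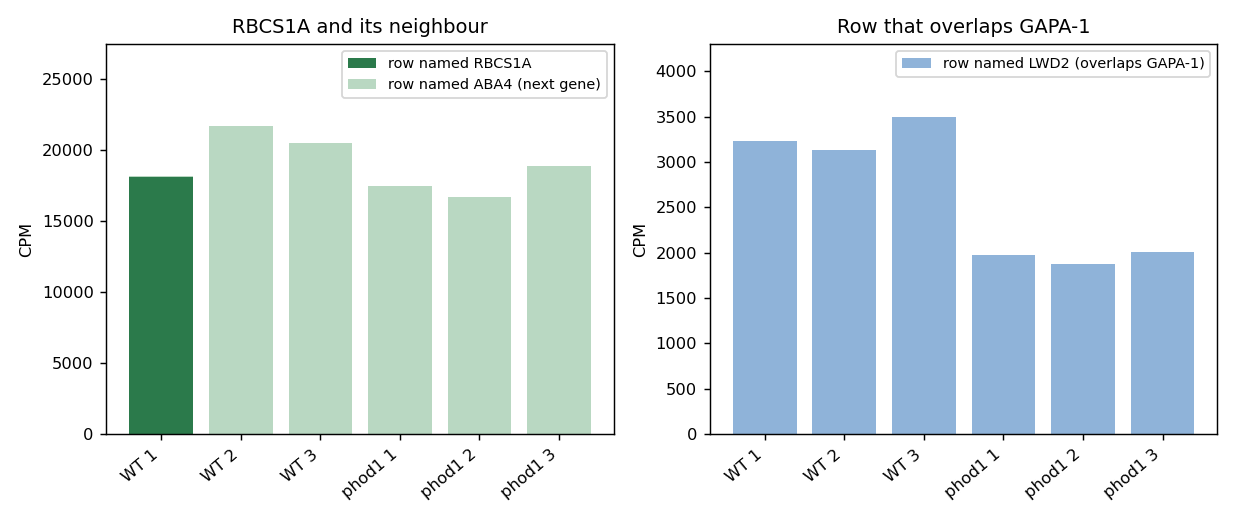
CPM in each library (bars) of the rows RBCS1A and ABA4, stacked, and of the row LWD2, which overlaps GAPA-1. The RBCS1A row is high in WT 1 and the ABA4 row in the other 5 libraries, with sums of 16686 to 21697 CPM, and the LWD2 row is lower in the 3 phod1 libraries.

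At the carboxylation step the clearest change was in RCA (AT2G39730, chr2:16570746-16573692, minus strand), Rubisco activase, which frees the active site of inhibitory sugar phosphates. Its level was 14251, 13259 and 13320.0 CPM in the WT libraries and 6606, 6506 and 6960.0 CPM in the phod1 libraries. The libraries of each genotype were close together and the groups far apart. RCA fell 2.03-fold (log2 fold change -1.02, SE 0.0685, adjusted p = 0.000451).

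RBCS1B and RBCS2B, Rubisco small subunit genes on chromosome 5, were also below WT in every phod1 library but did not pass the test. RBCS1B was at 2464, 2369 and 2231 CPM in WT and at 1912, 848 and 2077 CPM in phod1 (log2 fold change -0.55, SE 0.331, adjusted p = 0.285). RBCS2B was at 3433, 4793 and 3099 CPM in WT and at 87.4, 1522 and 2436 CPM in phod1, with 1 phod1 library far below its sisters. Its log2 fold change was -1.49 (SE 1.02, adjusted p = 0.345), and -0.93 without phod1 1 (adjusted p = 0.0954). The coding sequences of these genes are 97.3% identical, so reads can pass between them. Summed, they stood at 5897, 7161 and 5331 CPM in WT and at 1999.9, 2369.7 and 4513 CPM in phod1, without overlap, and the sum did not pass either (log2 fold change -1.05, SE 0.330, adjusted p = 0.0652).

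Promoters of light-regulated genes, Rubisco small subunit genes among them, are known for the G-box and the I-box, and PHR1, the main regulator of the phosphate starvation response, binds the palindrome GNATATNC, which was searched because the study's title concerns phosphate allocation. The 250 bases before the annotated start of each locus were read from the TAIR10.1 genome with RefSeq's annotation and searched on both strands for the G-box CACGTG, the I-box GATAAG and GNATATNC. A G-box was found in 7 of 39 windows (17.9%) and in 6.49% of 27443 windows of protein-coding genes. An I-box was found in 6 of 39 (15.4%) and in 12.3% of all windows, and GNATATNC in 2 of 39 (5.13%), TKL1 and RPE, and in 5.46% of all. The share with a PHR1 motif was thus close to that of all windows. Matches of different motifs did not overlap. The windows of RBCS1A, RBCS1B and RBCS3B held none of the motifs. A window set by the annotated start can miss letters that lie nearer the coding sequence. A match is a run of letters and not a measured site. The deposited tables hold no coordinates, and the submitters name the build TAIR10.

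Of these windows 4 are shown, 5′ to 3′ toward the start of the gene, because they hold the densest or the contrasting matches, which are in capitals. The RBCS2B window holds a G-box between I-boxes, the cFBP1 window a G-box and I-boxes on the reverse strand, the PRK window a G-box, and the RPE window the PHR1 motif. The RBCS2B I-boxes begin at positions -146, -115 and -94, counted from the annotated start, and the G-box at -123.
RBCS2B, chr5:15382072-15382321, minus strand: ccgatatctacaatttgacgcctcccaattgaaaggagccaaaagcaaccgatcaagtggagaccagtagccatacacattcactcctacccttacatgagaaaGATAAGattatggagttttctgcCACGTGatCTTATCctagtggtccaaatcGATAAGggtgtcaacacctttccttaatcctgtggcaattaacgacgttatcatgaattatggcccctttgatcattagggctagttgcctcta
cFBP1, chr3:20016587-20016836, plus strand: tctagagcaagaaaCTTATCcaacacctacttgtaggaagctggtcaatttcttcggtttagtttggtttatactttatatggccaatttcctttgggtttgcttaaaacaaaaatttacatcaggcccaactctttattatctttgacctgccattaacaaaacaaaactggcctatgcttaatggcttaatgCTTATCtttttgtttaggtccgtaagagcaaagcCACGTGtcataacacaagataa
PRK, chr1:11531949-11532198, plus strand: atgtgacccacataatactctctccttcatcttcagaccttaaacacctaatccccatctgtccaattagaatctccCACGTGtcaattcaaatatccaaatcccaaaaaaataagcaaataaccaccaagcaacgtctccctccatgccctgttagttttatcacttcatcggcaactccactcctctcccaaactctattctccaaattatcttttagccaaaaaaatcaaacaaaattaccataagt
RPE, chr5:24686218-24686467, minus strand: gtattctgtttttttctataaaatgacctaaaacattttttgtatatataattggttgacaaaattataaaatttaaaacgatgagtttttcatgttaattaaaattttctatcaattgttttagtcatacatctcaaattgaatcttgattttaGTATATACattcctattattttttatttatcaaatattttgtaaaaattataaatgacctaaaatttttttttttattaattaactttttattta

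In the reduction phase GAPA-2 fell and the others did not pass. GAPA-2 (AT1G12900), the second A subunit of the plastid glyceraldehyde 3-phosphate dehydrogenase, was at 2116, 1762 and 1866 CPM in WT and at 1135, 1124 and 1206 CPM in phod1. All phod1 values lay below all WT values, a 1.66-fold fall (log2 fold change -0.73, SE 0.0890, adjusted p = 0.00307). GAPB, the B subunit of the same enzyme, ran from 558 to 2084 CPM in WT and from 191 to 1220.0 CPM in phod1. Its groups overlapped (log2 fold change -0.76, SE 0.819, adjusted p = 0.552). PGK1, a chloroplast phosphoglycerate kinase, was at 1848, 2519 and 2670 CPM in WT and at 1479, 1422 and 529.9 CPM in phod1. The PGK1 groups did not overlap, and the gene passed by DESeq2 (adjusted p = 0.0471) but not by edgeR (log2 fold change -1.04, SE 0.407, adjusted p = 0.117).

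Regeneration of the acceptor was the step with the most called genes, 7 of 10 lower and 1 higher. PRK (AT1G32060, chr1:11532199-11534639, plus strand), phosphoribulokinase, makes the acceptor itself. It was at 2802, 2782 and 3266 CPM in WT and at 1717, 1785 and 1859 CPM in phod1, and fell 1.65-fold (log2 fold change -0.72, SE 0.0881, adjusted p = 0.00303). SBPASE, sedoheptulose 1,7-bisphosphatase, commits carbon to regeneration and stood at 845, 779.5 and 866 CPM in WT and at 516, 515 and 548 CPM in phod1. For both genes the lowest WT library lay well above the highest phod1 library, and SBPASE fell 1.58-fold (log2 fold change -0.66, SE 0.0709, adjusted p = 0.00202).

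RPE (AT5G61410, chr5:24683606-24686217, minus strand), plastid ribulose phosphate 3-epimerase, fell most among the called genes of this step. It was at 271, 242 and 278 CPM in WT and at 112, 138 and 144 CPM in phod1, without overlap (2.00-fold, log2 fold change -1.002, SE 0.121, adjusted p = 0.00299). RPI3, the plastid ribose phosphate isomerase that feeds the same pool, fell 1.32-fold, from 676 ± 28.7 to 511 ± 23.7 CPM (SD, n = 3 each). Its log2 fold change was -0.40 (SE 0.0698, adjusted p = 0.00980).

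Triose phosphate isomerase and an aldolase had the smallest called falls. TPI, the plastid triose phosphate isomerase, was at 341, 397 and 343 CPM in WT and at 281, 291 and 290.4 CPM in phod1 (log2 fold change -0.33, SE 0.0838, adjusted p = 0.0356). The call of TPI was lost on leaving out any single library (adjusted p 0.0501 to 0.111), and with plain library sizes its log2 fold change was 0.05, still below the median of 0.39 over all genes. FBA1, a plastid aldolase, was at 1236, 1175 and 1068 CPM in WT and at 883, 828 and 917 CPM in phod1, a 1.32-fold fall (log2 fold change -0.40, SE 0.0826, adjusted p = 0.0168). The call of FBA1 was lost without WT 2, phod1 1 or phod1 2 (adjusted p = 0.0522, 0.0588 and 0.0567).

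The other aldolase and the fructose bisphosphatase were below WT in every phod1 library, without passing. FBA2 was at 2234, 2293 and 2216 CPM in WT and at 2041, 1086 and 1471 CPM in phod1 (log2 fold change -0.55, SE 0.225, adjusted p = 0.129). The spread of FBA2 was in phod1, and without phod1 1 it passed (adjusted p = 0.0265). With any other single library left out FBA2 did not pass (adjusted p up to 0.262). cFBP1 (AT3G54050, chr3:20016837-20018822, plus strand), the chloroplast fructose 1,6-bisphosphatase, was at 911, 1779 and 956 CPM in WT and at 899.5, 462 and 389 CPM in phod1. Its nearest WT and phod1 libraries were almost equal (log2 fold change -1.06, SE 0.419, adjusted p = 0.120), and cFBP1 passed without phod1 1 (adjusted p = 0.0472) and by DESeq2 (adjusted p = 0.0483). With any other single library left out cFBP1 did not pass by edgeR (adjusted p up to 0.296).

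The transketolases, which move units of carbon pairs between sugars, went in opposite directions. TKL1 was at 4391, 3671 and 3874 CPM in WT and at 2595, 2544 and 2714 CPM in phod1 (1.52-fold lower, log2 fold change -0.60, SE 0.0873, adjusted p = 0.00540). TKL2 (AT2G45290, chr2:18672497-18676484, plus strand) was at 17.2, 18.1 and 24.9 CPM in WT and at 41.0, 37.0 and 31.2 CPM in phod1. Neither gene's groups overlapped, and TKL2 was 1.81-fold higher (log2 fold change 0.86, SE 0.189, adjusted p = 0.0214). TKL2 no longer passed when WT 1, WT 2, phod1 1 or phod1 2 was left out (adjusted p = 0.0623, 0.0705, 0.0688 and 0.0637). Per kilobase of annotated exon, the WT level of TKL1 was 1245 CPM and that of TKL2 5.97 CPM, so the gene that rose supplied a small part of transketolase transcript.

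The CP12 proteins bind phosphoribulokinase and glyceraldehyde 3-phosphate dehydrogenase in the dark and hold both enzymes inactive. CP12-2 was at 666, 663 and 497 CPM in WT and at 258, 238 and 283 CPM in phod1. The groups lay far apart, and CP12-2 fell 2.34-fold (log2 fold change -1.23, SE 0.142, adjusted p = 0.00261). Summed with the row of BZIP53, a gene 6 bases away, its log2 fold change was -0.96 (adjusted p = 0.00327). CP12-1 was at 2099.97, 2281 and 1359 CPM in WT and at 1133, 1132 and 1293 CPM in phod1 (log2 fold change -0.69, SE 0.203, adjusted p = 0.0538). CP12-1 passed without WT 3, its lowest WT library (adjusted p = 0.00453), and by DESeq2 (adjusted p = 0.0136). With any other single library left out CP12-1 did not pass by edgeR (adjusted p up to 0.142). CP12-3 was low, with mean levels of 9.96 ± 2.28 CPM (WT) and 6.65 ± 0.911 CPM (phod1; SD, n = 3 each), and the groups overlapped (log2 fold change -0.58, SE 0.215, adjusted p = 0.10). CP12-3 passed without WT 3 (adjusted p = 0.0405) but not with any other single library left out (adjusted p up to 0.238). Summed with gene models within 500 or 1500 bases, CP12-3 had a log2 fold change of -0.42 or -0.15, and neither sum passed. Per kilobase of annotated exon the WT levels were 2096, 956 and 12.9 CPM for CP12-1, CP12-2 and CP12-3.

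In the chloroplast steps of photorespiration no gene passed. PGLP1A and PGLP1B, a pair of genes for 2-phosphoglycolate phosphatase, the entry enzyme, have identical coding sequences, and their values ran in parallel. PGLP1A was at 46.7, 158 and 125 CPM in WT and at 73.9, 1.75 and 64.9 CPM in phod1. PGLP1B was at 44.5, 156 and 124 CPM in WT and at 74.1, 1.78 and 65.5 CPM in phod1. In both, phod1 2 stood far below its sisters, and WT 1 lay below the other phod1 libraries, so the groups overlapped. For the sum of the pair the log2 fold change was -1.22 (SE 1.19, adjusted p = 0.511). GLYK, glycerate kinase, which returns the last product to the Calvin cycle, was at 164, 139 and 167 CPM in WT and at 9.67, 121 and 77.3 CPM in phod1. All its phod1 libraries were below WT, with phod1 1 the lowest (log2 fold change -1.18, SE 0.806, adjusted p = 0.344).

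In the peroxisome 3 of 6 genes fell, with the 3 largest called changes of either pathway. CAT2 (AT4G35090, chr4:16700312-16703504, minus strand), a leaf catalase, breaks down the hydrogen peroxide that glycolate oxidase makes. It was at 1214, 1197 and 1371 CPM in WT and at 451, 421 and 438 CPM in phod1, and fell 2.89-fold (log2 fold change -1.53, SE 0.0806, adjusted p = 0.000230). The replicates of CAT2 were tight in both genotypes, and it had the smallest adjusted p of the 33 genes.

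HPR1, the peroxisomal hydroxypyruvate reductase, was at 123, 109 and 108 CPM in WT and at 23.1, 47.8 and 25.1 CPM in phod1. The highest phod1 library was still less than the lowest WT library, and HPR1 fell 3.55-fold (log2 fold change -1.83, SE 0.305, adjusted p = 0.00888). AGT1 (AT2G13360, chr2:5538740-5541479, minus strand), serine:glyoxylate aminotransferase, was at 1026, 1898 and 1642 CPM in WT and at 344, 394 and 85.4 CPM in phod1. The groups did not overlap and the fall was 5.55-fold, but the replicates were spread (log2 fold change -2.47, SE 0.604, adjusted p = 0.0303). Without phod1 3 the call of AGT1 held (adjusted p = 0.0152). It was lost without WT 1, WT 2, WT 3, phod1 1 or phod1 2 (adjusted p = 0.0506, 0.0830, 0.0774, 0.0735 and 0.0539).

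The remaining peroxisomal genes did not pass. GOX1, glycolate oxidase, was at 169.9, 182 and 829 CPM in WT and at 566, 111 and 99.7 CPM in phod1, so 1 library of each genotype stood above the rest and the groups overlapped (log2 fold change -0.61, SE 0.956, adjusted p = 0.696). The coding sequences of GOX1 and of GOX2, its unanalysed neighbour, are 90.6% identical. GGT1, glutamate:glyoxylate aminotransferase, was at 84.3, 498 and 495 CPM in WT and at 375, 425 and 376 CPM in phod1. WT 1 alone was low, and the log2 fold change of GGT1 was 0.13 with it (SE 0.624, adjusted p = 0.910) and -0.34 without it (adjusted p = 0.0604). GGT2, a second gene for this enzyme, was at 39.9, 43.2 and 32.9 CPM in WT and at 19.9, 23.3 and 9.78 CPM in phod1, without overlap (log2 fold change -1.13, SE 0.333, adjusted p = 0.0541). GGT2 passed without phod1 3 (adjusted p = 0.0322) and by DESeq2 (adjusted p = 0.00735). With any other single library left out GGT2 did not pass by edgeR (adjusted p up to 0.140).

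In the mitochondrion 4 of 5 genes fell, all 4 of them steady. These enzymes, glycine decarboxylase and serine hydroxymethyltransferase, turn glycine into serine and release CO2 and ammonium. GLDP2, a P protein of glycine decarboxylase, was at 598, 607 and 600.3 CPM in WT and at 262, 291 and 238 CPM in phod1 (2.28-fold lower, log2 fold change -1.19, SE 0.0902, adjusted p = 0.000641). GLDP1, the other P protein, was at 938, 776 and 861 CPM in WT and at 306, 364 and 644 CPM in phod1 (log2 fold change -0.97, SE 0.290, adjusted p = 0.0567). In GLDP1 the libraries did not overlap but phod1 3 lay nearer to WT, and without it the gene passed (adjusted p = 0.00507), as it did by DESeq2 (adjusted p = 0.00915). With any other single library left out GLDP1 did not pass by edgeR (adjusted p up to 0.152).

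The H proteins, which carry the bound intermediate between the other subunits, changed by like amounts. GLDH1 was at 258, 284 and 284 CPM in WT and at 178, 193 and 199 CPM in phod1 (log2 fold change -0.54, SE 0.0810, adjusted p = 0.00623). GLDH3 was at 289, 308 and 264 CPM in WT and at 191, 186 and 217 CPM in phod1 (log2 fold change -0.53, SE 0.0985, adjusted p = 0.0120). Both were 1.45-fold lower, without overlap. SHM1, the mitochondrial serine hydroxymethyltransferase, was at 1000.2, 804 and 929 CPM in WT and at 560.04, 499 and 591 CPM in phod1, and fell 1.66-fold (log2 fold change -0.73, SE 0.112, adjusted p = 0.00656). The row of NdhM, a gene 112 bases from SHM1, held 0, 10493 and 4845 units in WT and 4360, 4497 and 4774 units in phod1. Whether reads passed between the SHM1 and NdhM rows in WT 1 was not tested.

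Set side by side, the pathways were both lower in every phod1 library when the steady genes were summed. The 14 steady Calvin cycle genes had sums of 31988, 29995 and 29646.5 CPM in the WT libraries and of 17826, 16722 and 18260.1 CPM in the phod1 libraries, a ratio of phod1 to WT of 0.576. The 5 steady photorespiration genes, CAT2, GLDP2, GLDH1, GLDH3 and SHM1, had sums of 3360.0, 3200.6 and 3448 CPM in the WT libraries and of 1642, 1590.04 and 1684 CPM in the phod1 libraries, a ratio of 0.491. The Calvin cycle sum was 9.52, 9.37 and 8.60 times the photorespiration sum in WT and 10.9, 10.5 and 10.8 times in phod1. For these genes, chosen after their values were seen, the quotient was higher in each phod1 library than in each WT library. This also held without RCA, the most abundant of them (4.74 to 5.28 in WT and 6.43 to 6.83 in phod1). CAT2 had the highest WT level of the 5 photorespiration genes and the largest fall (1261 CPM in WT and 437 CPM in phod1). The quotient was not taken without CAT2, so the higher quotient may rest on that gene. Over all rows but RBCS1A the quotient was 6.87, 6.08 and 5.01 in WT and 6.61, 7.21 and 7.63 in phod1, and the groups overlapped. With the ABA4 and LWD2 rows added to all Calvin cycle rows, the sums were 62603 to 68366 CPM in WT. In phod1 these wider sums were 40757 to 44774 CPM, and the ratio of the means was 0.657. The added rows may hold reads of RBCS1A and GAPA-1. The sums are a description with no test. As a share of all counts, the Calvin cycle rows without RBCS1A took 3.52% to 3.73% in WT and 2.60% to 2.63% in phod1, and the photorespiration rows 0.512% to 0.710% and 0.345% to 0.394%.

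**Figure D4:**
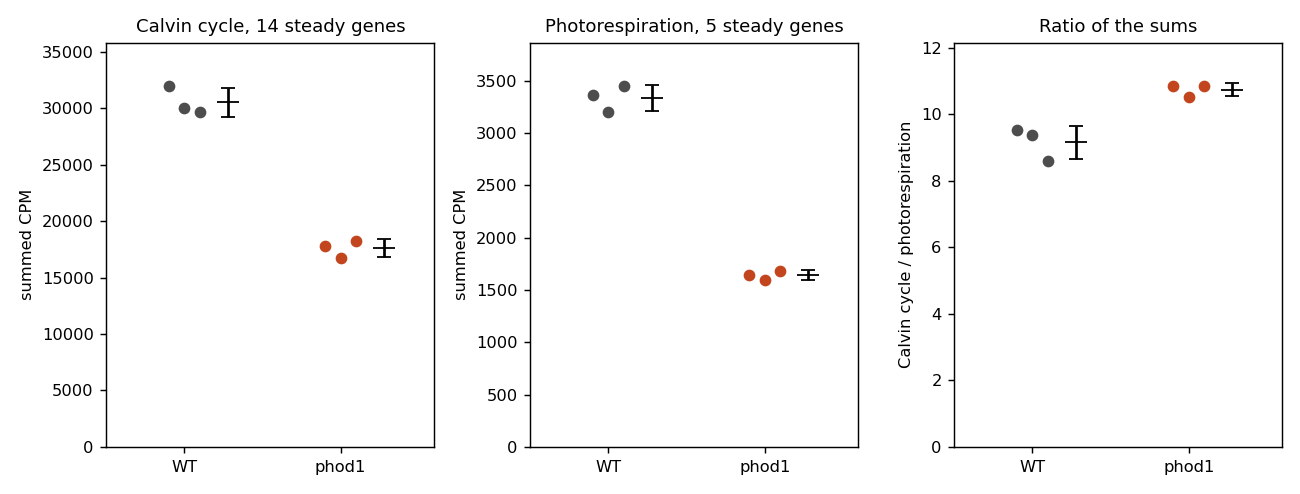
Summed CPM of the 14 steady Calvin cycle genes and of the 5 steady photorespiration genes, and the quotient of the sums (y axes), in each library (points), with the mean and SD of 3 libraries beside them. Both sums are lower in phod1, at 0.576 and 0.491 of WT. The mean quotient of these steady genes, not taken without CAT2, is 10.7 in phod1 and 9.16 in WT.

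Whether copies of one enzyme moved alike was asked within libraries, by the log2 ratio of the counts of 9 of 12 pairs of isoforms, since 3 pairs lacked a row. Such a ratio does not depend on the scaling of libraries. With 3 samples against 3, an exact two-sided permutation test cannot go below p = 0.1, so no pair could pass. The log2 ratio of TKL1 to TKL2 was 7.64 ± 0.356 in WT and 6.18 ± 0.239 in phod1 (SD, n = 3 each), a difference of -1.47 without overlap (exact permutation p = 0.1, adjusted over 9 pairs 0.18). The ratio of CP12-1 to CP12-2 was 1.63 ± 0.167 in WT and 2.19 ± 0.0574 in phod1, and that of CP12-2 to CP12-3 was 5.94 ± 0.141 and 5.29 ± 0.0943, both also without overlap (exact permutation p = 0.1, adjusted 0.18). CP12-2 was thus lower relative to each of the other CP12 genes in phod1. The ratio of GLDH1 to GLDH3 was -0.06 ± 0.143 in WT and -0.06 ± 0.102 in phod1, with overlap (exact permutation p = 1). Overlap was also seen for FBA1 to FBA2, GLDP1 to GLDP2 and CP12-1 to CP12-3 (exact permutation p = 0.5, 1 and 0.3). GGT1 to GGT2 did not overlap (exact permutation p = 0.1), with a difference of 1.72 and WT 1 at 1.08 against 3.53 and 3.91 in its sisters. PGLP1A to PGLP1B, whose coding sequences are identical, differed by -0.04, also without overlap (exact permutation p = 0.1).

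Around these pathways, 6 further lists of genes, also chosen with earlier results of these data known, were described in the same fit. Of all genes tested, 13.0% were called lower and 14.6% higher. The counts of 1 of 9 lower for Rubisco and its assembly and 2 of 19 higher for other photorespiration lie near these shares. The light-driven redox system of ferredoxin and thioredoxin, which activates several Calvin cycle enzymes, was lower almost throughout, with 10 of 11 tested genes lower, none higher and a median log2 fold change of -0.69. FTRA2, a subunit of ferredoxin-thioredoxin reductase, fell from 388 ± 5.63 to 107 ± 6.16 CPM (log2 fold change -1.87, SE 0.0739, adjusted p = 0.000118). FD2, the main leaf ferredoxin, fell from 4816 ± 332 to 1689.8 ± 90.7 CPM (log2 fold change -1.51, SE 0.0833, adjusted p = 0.000255). The thioredoxin TRXF2, an activator of bisphosphatases, fell from 259 ± 8.23 to 98.8 ± 8.13 CPM (log2 fold change -1.39, SE 0.0881, adjusted p = 0.000383). The gene not called was TRXM3, a low and uneven row (log2 fold change -2.53, SE 1.46, adjusted p = 0.261).

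Other isoforms and linked enzymes were mixed, with 3 of 6 lower, 1 higher and a median of -0.40. The carbonic anhydrases, which interconvert CO2 and bicarbonate, had large falls. CA1 fell from 3176 ± 260.2 to 901 ± 31.9 CPM (log2 fold change -1.82, adjusted p = 0.000182), and CA2 from 763 ± 55.5 to 213 ± 15.6 CPM (log2 fold change -1.84, adjusted p = 0.000216). CBBY, a phosphatase of a Rubisco inhibitor, fell by 0.82 on the log2 scale (adjusted p = 0.00461). RPI1, a ribose phosphate isomerase gene, rose from 24.1 ± 2.00 to 50.3 ± 4.26 CPM (log2 fold change 1.06, adjusted p = 0.00199).

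Of the genes for the Rubisco large subunit and for Rubisco assembly, 1 of 9 was lower and none higher, with a median of -0.23. That gene was RBCX1, an assembly chaperone, which fell from 84.6 ± 7.41 to 23.9 ± 1.88 CPM (log2 fold change -1.83, SE 0.112, adjusted p = 0.000350). The plastid-encoded large subunit gene RBCL stood at only 39.4 ± 15.1 CPM in WT and 24.6 ± 3.87 CPM in phod1. Its log2 fold change of -0.68 did not pass (adjusted p = 0.159).

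Cytosolic and non-green counterparts of the same enzymes had a median of 0.57, with 4 of 11 higher and 1 lower. The cytosolic aldolase FBA8 rose from 409.9 ± 13.7 to 619 ± 9.15 CPM (log2 fold change 0.59, adjusted p = 0.00169). The cytosolic triose phosphate isomerase cTPI rose from 46.5 ± 5.79 to 78.4 ± 2.55 CPM (log2 fold change 0.76, adjusted p = 0.00625), and the glycolytic dehydrogenase GAPC2 from 376 ± 44.7 to 557 ± 40.1 CPM (log2 fold change 0.57, adjusted p = 0.0154). GAPCP2, a glyceraldehyde 3-phosphate dehydrogenase of non-green plastids, rose at a low level, from 0.788 to 2.02 CPM (log2 fold change 1.34, adjusted p = 0.0423). The gene that fell was cyFBP, the cytosolic fructose bisphosphatase of sucrose synthesis, from 126 ± 13.1 to 62.0 ± 11.3 CPM (log2 fold change -1.02, adjusted p = 0.00781). The other aldolase genes of this list, FBA4 and FBA6, were not called (log2 fold changes 0.13 and 0.11), nor was FBA3 of the list of other isoforms (0.37).

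Of the other genes linked to photorespiration, which cover transport, refixation of ammonium and minor isoforms, 8 of 19 were lower and 2 higher, with a median of -0.29. GLU1 and GLN2 refix ammonium, and GLU1, the ferredoxin-dependent glutamate synthase, fell from 1169 ± 100.3 to 611 ± 19.9 CPM (log2 fold change -0.94, adjusted p = 0.00112). CAT1, a second catalase, had a log2 fold change of -1.44 (adjusted p = 0.000344) and PMDH2, a peroxisomal malate dehydrogenase, of -1.45 (adjusted p = 0.00302). CAT3, the catalase gene of highest level here, fell less, from 5528 ± 175 to 4412 ± 40.3 CPM (log2 fold change -0.33, adjusted p = 0.0118). The 2 that rose were mtLPD2, a mitochondrial lipoamide dehydrogenase (log2 fold change 0.78, adjusted p = 0.00110), and PMDH1 (0.43, adjusted p = 0.0122). The peroxisomal malate dehydrogenases PMDH1 and PMDH2 thus passed in opposite directions.

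Of the plastid oxidative pentose phosphate genes 1 of 4 tested was lower and 2 higher, with a median of 0.49. G6PD1, a plastid glucose 6-phosphate dehydrogenase, fell from 308 ± 18.3 to 78.4 ± 40.3 CPM (log2 fold change -1.97, adjusted p = 0.0113). G6PD2 and G6PD3, genes for the same enzyme, rose (log2 fold changes 0.94 and 0.84, adjusted p = 0.0226 and 0.0156).

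**Figure D5:**
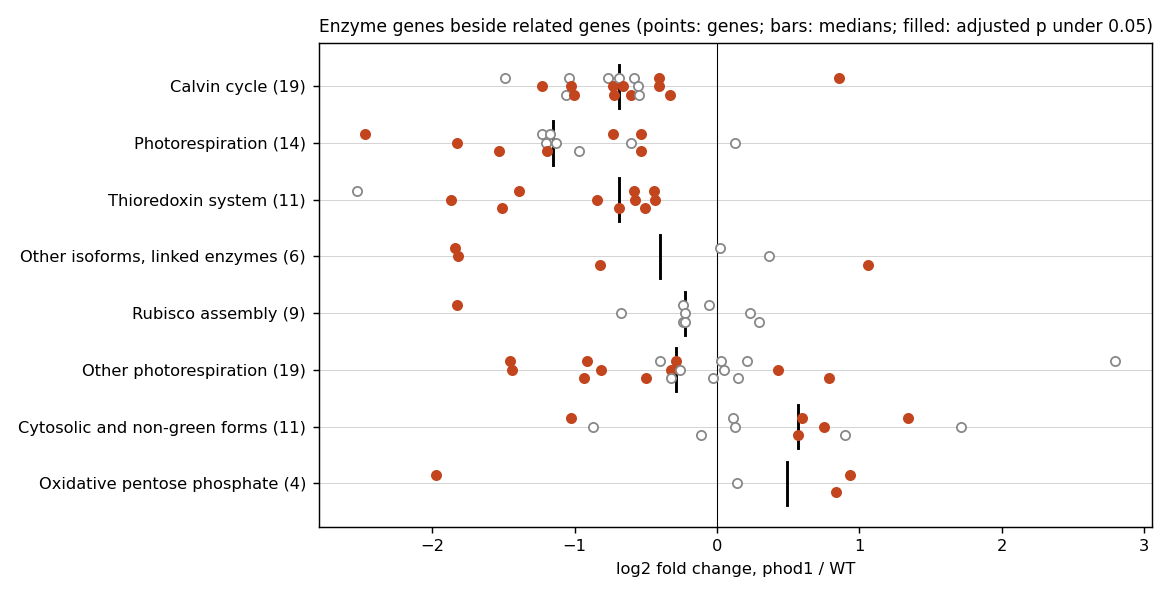
Log2 fold change of phod1 over WT (x axis) of each tested gene of both pathways and of the 6 related lists, with the number of genes in brackets; filled points have an adjusted p under 0.05 and bars are medians. The medians run from -1.15 in photorespiration to 0.57 in the cytosolic and non-green forms.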

How the data were processed

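RNA was taken from shoots of 3 WT and 3 phod1 samples. The values analysed are each gene's estimated counts as the authors deposited them, whole numbers with no normalization. CASAVA 1.4, STAR, StringTie and the build TAIR10 appear in the submitters' processing notes without roles. For the counting command, the annotation and the strand setting, the sources used here give nothing. Without strand, overlapping genes cannot be told apart. Per the file headers, the authors' deposited table of their own comparison gives a log2 fold change with its error, a test score, p-values and a mean normalized count, here called a signal. No source used here names its tool, but its fold changes and errors match those of the DESeq2 fit made here.

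All 6 columns were used, grouped by the genotype in the labels. The plan had been written for read counts. Its test was retained for the estimated counts, and rounding them to whole numbers altered none. A count of 0 in all libraries was found for 7887 of 21693 genes, and filterByExpr (minimum count 10, minimum total 15) retained 10803. The test was the quasi-likelihood F test of edgeR 4.0.16 in R 4.3.3 (glmQLFit, glmQLFTest), two-sided, on TMM-scaled libraries with genotype alone in the model. P-values were adjusted by Benjamini-Hochberg across the tested genes, with 0.05 as the threshold. An SE was obtained as the absolute log2 fold change over the square root of F, and other errors are SDs over 3 libraries. The alternatives were DESeq2 1.42.0, other scalings and filters, counts divided by 4, the replicate number as a block, sums with neighbouring gene models within 500 or 1500 bases, and leaving out each library. The fits were tested on simulated data.

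The genes and lists were chosen with earlier results of these data known. Every listed gene could be named, and of each related list up to 3 called genes per direction with the smallest p, or all where 5 or fewer were called. TRXM3, RBCL, FBA3, FBA4, FBA6, ABA4, LWD2, NdhM, BZIP53, CAT3 and GLN2 were named in addition. The TAIR10.1 annotation of RefSeq, which gave positions, exon lengths and promoters, held 20318 of the 21693 identifiers. Coding sequences were aligned with Biopython 1.88, as identical bases over aligned columns.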

Additional observations from a re-analysis of the deposited data

How the results depend on the processing

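With RLE or upper-quartile factors, TMM without plastid genes, no filter, or counts divided by 4, 17 genes of both pathways were lower and 1 higher, as in the reported fit. DESeq2 called 22 lower and 1 higher, against 15.8% lower among all genes it gave an adjusted p. Sums with gene models within 500 or 1500 bases, the latter chosen after seeing the data, gave 18 lower and 1 higher. The call so added was GAPA-1, which has no row, so that its sum is the LWD2 row. In these sums a locus without a row is represented by its neighbours alone. With plain library sizes 4162 genes were called in all and 11 of these genes were lower, 6 of them in the Calvin cycle, without TPI, FBA1, TKL1, RPI3, GLDH1 and GLDH3, and TPI had a log2 fold change of 0.055 (adjusted p = 0.622). The causes were not tested. Leaving out 1 library at a time gave 14 to 18 lower, 0 to 1 higher, 8 to 11 lower in the Calvin cycle, 6 to 9 lower in photorespiration, and 2128 to 2531 calls over all genes against 2988. Same-numbered libraries did not deviate together (correlations -0.0059, -0.051 and 0.0074), no library correlated best with its own number, and the samples share only a number. With the replicate block 12 genes were lower and 0 higher, with 1500 calls over all genes. The calls over all genes given here count both directions. The share of all genes called lower was taken only for the reported fit, plain library sizes and DESeq2. Elsewhere the numbers of lower genes have no background beside them. The block took the calls of TPI, FBA1, TKL2, RPI3, AGT1 and GLDH3. The 33 tested genes lay above the floor of 0.256 to 0.404 CPM in every library.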
